A study of Rattus norvegicus with 12 samples.

Results

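The genes described here are 7 that mark or act in the connective tissue cells of the lung: the platelet-derived growth factor receptors Pdgfra and Pdgfrb, the surface marker Thy1, the intermediate filament gene Vim, and the secreted frizzled-related protein genes Sfrp1, Sfrp2 and Sfrp4. Members were all probe sets that the annotation of the Affymetrix RAE 230A array assigned to one of these genes alone. These were 9 of the 15866 probe sets for genes on the array, and 7 of its 10411 named genes. Lung RNA of 12 Wistar rats, all 12 weeks old, was measured with 1 array per animal. The 5 normal rats had received buffer into the peritoneum at 8 weeks of age. The 7 diabetic rats had received streptozotocin, which kills pancreatic beta cells and so lowers insulin, by the same route and at the same age. They had been diabetic for 4 weeks. All animals were male and had fasted overnight before the lungs were taken, as the study's methods state. Each array therefore represents whole lung, and no cell type was isolated.

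PDGFR alpha and PDGFR beta are receptor tyrosine kinases that pair up when a platelet-derived growth factor binds, and they drive growth and migration of mesenchymal cells. In the lung, PDGFR alpha marks fibroblasts of the alveolar wall and of the tissue around airways and vessels, while PDGFR beta is best known from pericytes, vascular smooth muscle and some fibroblasts. Thy-1 (CD90) is a glycoprotein anchored to the surface of subsets of fibroblasts, and in rats also of neurons, thymocytes and T cells that have newly left the thymus, while most mature rat T cells lack it. Vimentin forms the filaments of mesenchymal cells, endothelium and leukocytes. The secreted frizzled-related proteins carry a domain like that of the Wnt receptors of the frizzled family, with which they bind Wnt proteins outside the cell.

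The values were MAS 5.0 signals, intensities on a linear scale that had been brought to the same trimmed mean on every array. Probe sets were ordered by mean log2 signal over all arrays and the lowest 40% were not tested, which left 9520 probe sets of 7036 genes. Of the 9 member probe sets 6 were kept, 1 for each gene other than Thy1, and both Thy1 probe sets and 1 of the 2 for Sfrp4 lay under that limit. The array of diabetic animal 6 stood apart, with a mean Pearson's r of 0.948 with the other diabetic arrays, against 0.963 to 0.972 for each of the other 11 arrays with its own group. GAPDH control probes at the 3' and 5' ends of the transcript, whose ratio depends on RNA integrity, gave 1.32 ± 0.0778 (SD, n = 5) in normal and 1.15 ± 0.0710 (SD, n = 7) in diabetic animals (p = 0.00505 in an exact permutation test, two-sided), and its part in the results was not tested beyond a fit with the ratio as a covariate. The ratio for beta-actin was 2.06 ± 0.437 (SD, n = 5) and 2.08 ± 0.372 (SD, n = 7).

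Pdgfra had higher signals in diabetic than in normal lung, Sfrp2 had lower ones, and neither passed an adjusted p of 0.05 in limma (0.0552 for each). Of the 6 member probe sets tested, 0 passed, against 16 of 9520 on the whole array (0.168%). At an adjusted p under 0.10 the 2 were called, against 2.06% of all probe sets. At an unadjusted p under 0.05, 2 of 6 were higher in diabetic lung (Pdgfra and Vim), where 7.75% of all probe sets were, and 1 of 6 was lower (Sfrp2), where 8.68% were. These shares of all probe sets are those to set beside each count at that p in the gene lists below. Sfrp2 was kept by the filter through its normal signals, as its diabetic mean lay at the limit. The groups did not overlap for Pdgfra, which was higher in every diabetic animal, as for 0.924% of all probe sets in that direction. For 0 of the 6 did they lie apart with the diabetic animals lower, against 1.11%. The median log2 difference, diabetic minus normal, was 0.11 over the 6 members and -0.01 over all probe sets tested.

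**Figure D1:**
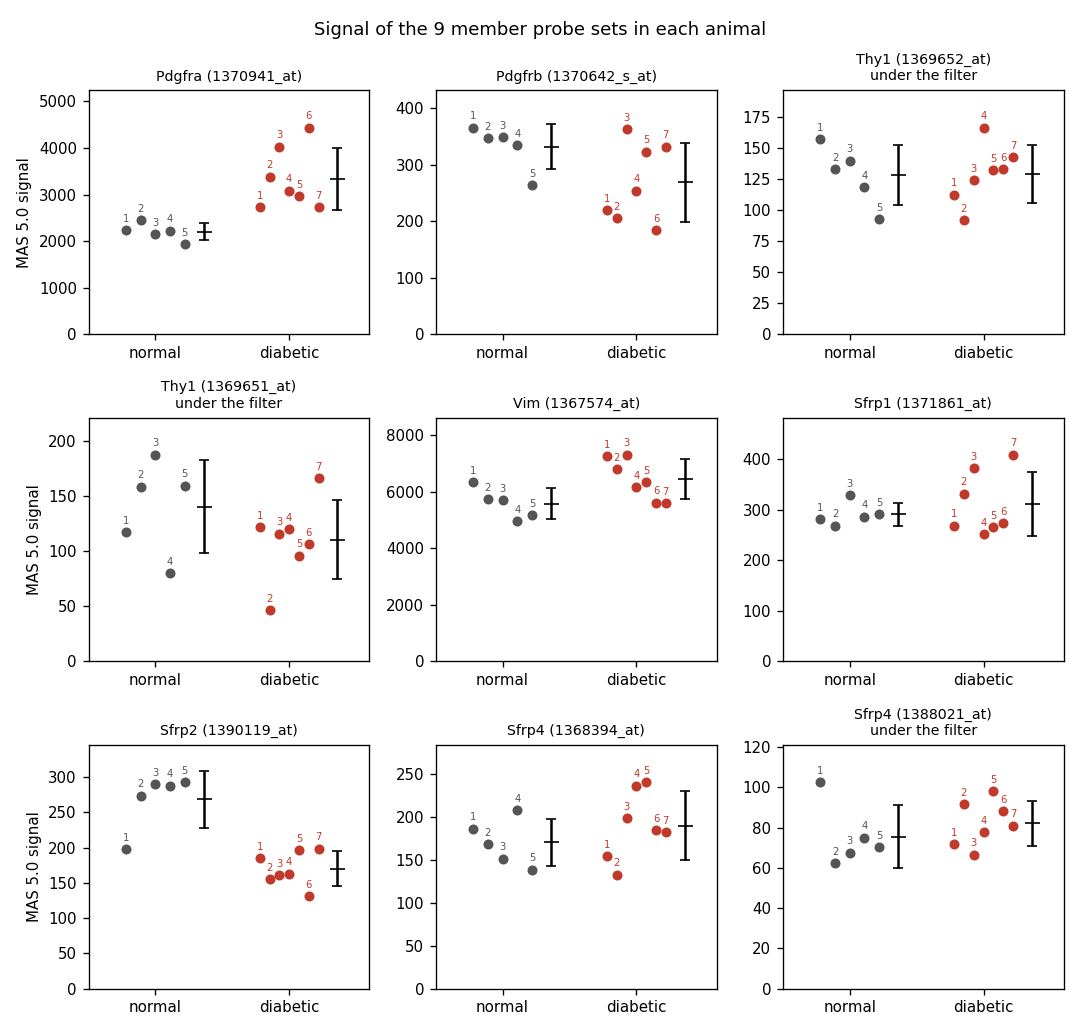
MAS 5.0 signal (linear intensity) of each member probe set in every animal, 1 panel per probe set with an axis that starts at 0, for 5 normal and 7 diabetic lungs; points are animals, and lines show the mean and SD of a group. Pdgfra lies above the normal range in 7 of 7 diabetic animals, and Sfrp2 lies below it in 6 of 7.

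To show the DNA in front of the members with the smallest p in each direction, the RefSeq promoter windows of Pdgfra and Sfrp2 are given below, each from 250 bases before to 50 bases after the annotated start on the GRCr8 assembly. Capitals mark matches to the letters of a CCAAT box (CCAAT) or an AP-1 site (TGANTCA) on either strand. The TATA box (TATAAA), the GC box (GGGCGG) and the TCF/LEF core (CTTTGAT), by which Wnt signalling acts on genes, were searched too. The window of Pdgfra lies at chr14:33408467-33408766 on the minus strand and that of Sfrp2 at chr2:171387286-171387585 on the plus strand.
Pdgfra: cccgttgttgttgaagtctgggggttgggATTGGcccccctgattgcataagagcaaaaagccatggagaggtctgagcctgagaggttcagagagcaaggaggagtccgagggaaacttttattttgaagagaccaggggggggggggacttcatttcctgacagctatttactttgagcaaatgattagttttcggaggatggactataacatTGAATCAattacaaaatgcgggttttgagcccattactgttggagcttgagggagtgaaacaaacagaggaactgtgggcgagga
Sfrp2: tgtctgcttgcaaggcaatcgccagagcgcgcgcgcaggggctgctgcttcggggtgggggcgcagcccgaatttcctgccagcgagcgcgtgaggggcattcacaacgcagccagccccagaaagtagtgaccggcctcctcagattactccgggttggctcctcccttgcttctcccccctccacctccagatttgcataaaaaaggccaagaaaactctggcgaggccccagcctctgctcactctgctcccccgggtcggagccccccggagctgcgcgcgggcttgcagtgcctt

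The Pdgfra window held 1 CCAAT box and 1 AP-1 match, which do not overlap, and had a GC content of 48%. That of Sfrp2 held none of the 5 motifs, and its GC content was 65%, where the median of all promoters was 51.7%. The window of Vim, the only other member with an entry, lies at chr17:81577011-81577310 on the plus strand. It held 1 TATA box, 1 CCAAT box and 1 GC box match at a GC content of 62%. Among 33469 rat promoter windows, 37.5% held CCAAT, 7.33% TGANTCA, 14.2% TATAAA, 33.1% GGGCGG and 3.63% CTTTGAT. The arrays measured transcripts and say nothing of binding at these letters.

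Of the receptors, Pdgfra (probe set 1370941_at, Entrez 25267) showed the clearest separation of the groups. Its signals in normal animals 1 to 5 were 2237, 2452, 2155, 2226 and 1930.1. In the diabetic animals they ran from 2722 through a median of 3086.5 to 4439. Every diabetic animal lay above the highest normal one, and animals 6 and 3 were the highest of all. The mean was 2200.1 ± 187 (SD, n = 5) in normal and 3337 ± 664 (SD, n = 7) in diabetic lung, a ratio of 1.52. The log2 difference was 0.58 (SE 0.12, 95% interval 0.33 to 0.83), the limma adjusted p was 0.0552, and the gene stood 27th of 9520 in order of p. In whole tissue, more or fewer cells of a type and more or less RNA per cell cannot be told apart. Of 21 alternative settings, 5 brought the adjusted p under 0.05, and all 21 kept the direction, with log2 differences of 0.48 to 0.96 and adjusted p of 0.0056 to 0.128. The highest value came with the GAPDH ratio as a covariate, which moved it from 0.58 to 0.96. That ratio was 1.23 to 1.44 in normal and 1.10 to 1.30 in diabetic arrays, highest among the latter in animal 6. This fit therefore cannot cleanly part the ratio from the group.

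Pdgfrb (1370642_s_at, Entrez 24629) did not show the same difference. Signals in the normal animals were 365.5, 347.3, 348.7, 334.2 and 264.0. The diabetic animals ranged from 184.5 through a median of 253.9 to 362.5. Diabetic animals 1, 2, 4 and 6 lay below the lowest normal value, while animals 3, 5 and 7 lay within the normal range, so the groups overlapped. The means were 332 ± 39.6 (SD, n = 5) and 269 ± 70.2 (SD, n = 7), with a log2 difference of -0.34 (SE 0.17, 95% interval -0.69 to 0.01, limma adjusted p = 0.323). The suffix of this probe set marks probes that can match more than 1 transcript, so its signal is uncertain. Within each array, the log2 signal of Pdgfra minus that of Pdgfrb was 2.61 to 2.87 in normal and 3.04 to 4.59 in diabetic lung. These ranges did not overlap, but Pdgfra alone did not overlap either and Pdgfrb leaned lower. The difference of the 2 probe sets is therefore no further evidence.

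The other genes of the pathway were described from a list of 29, of which 18 were tested. At an unadjusted p under 0.05, 4 of these were higher and 1 was lower, where 7.75% and 8.68% of all probe sets were. Of these genes 0 passed the adjusted p, and the median log2 difference was -0.01, the same as over all probe sets. The 4 became 2 without diabetic 4, diabetic 7 or normal 4, with the replicate number as a block and with the GAPDH covariate. The 1 lower became 0 with that covariate, 3 without a filter, and 2 with the block or without diabetic 6 or 7 or normal 1 or 2. Pdgfa, which encodes the ligand chain whose homodimer binds PDGFR alpha only, had a mean signal of 509.7 ± 54.7 (SD, n = 5) in normal and 418 ± 50.5 (SD, n = 7) in diabetic lung, a log2 difference of -0.29 (SE 0.10, limma adjusted p = 0.184). The ligand genes Pdgfc and Pdgfd lay under the filter, with mean signals of 65.1 and 34.6. Nck1 and Crk, adaptors that dock on activated receptors, had log2 differences of 0.29 (SE 0.07, adjusted p = 0.0793) and 0.32 (SE 0.09, adjusted p = 0.116). Pik3ca, the catalytic subunit of phosphoinositide 3-kinase, was at 0.26 (SE 0.11, adjusted p = 0.259) on the brighter of its 2 probe sets tested.

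Thy1 was dim on both of its probe sets. With 1369652_at the 5 normal signals were 157.1, 132.8, 139.9, 118.6 and 92.9, and the diabetic ones ran from 91.8 through a median of 132.1 to 166.6. With 1369651_at they were 117.3, 158.5, 187.5, 79.8 and 159.5 in normal lung, and 46.3 to 166.5 with a median of 115.9 in diabetic lung. The groups overlapped on both. The log2 differences were 0.01 (exact permutation test, two-sided, p = 0.953) and -0.37 (p = 0.278, exact permutation test), so the probe sets did not point the same way, and neither difference exceeded the spread between animals. The smallest p that 5 against 7 animals can give in this test is 0.00126. Signals this low limit what could be seen of Thy1.

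T cell and nerve markers were read beside Thy1, though mature T cells of the rat mostly lack it. T cell markers had 7 genes tested of 12 on the array, 1 of them lower at an unadjusted p under 0.05, and 0 to 6 of them over the alternatives, with summed signals of 2613 to 3143 in normal and 1382 to 3345 in diabetic lung. Cd4 was at -0.31 (log2), Cd3d at -0.27, Cd247 at -0.18 on the brighter of 2 probe sets tested, and Cd5 at -0.22. None of these passed the adjusted p. Without diabetic animal 6 the median of the list was -0.04 in place of -0.18, and with the GAPDH ratio as a covariate it was -0.80. The other 5, with the defining marker Cd3e at a mean signal of 137, lay under the filter. All 5 nerve markers on the array lay there too, at mean signals of 23.3 to 141.

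Vim (1367574_at, Entrez 81818) had a slightly higher mean in diabetic lung. Its signals were 6345, 5747, 5698, 4960 and 5168 in normal animals, and from 5594 through a median of 6341 to 7309 in diabetic ones. Diabetic animals 1, 2 and 3 lay above the highest normal value, and the other 4 lay within the normal range. The means were 5583.5 ± 543 (SD, n = 5) and 6440.1 ± 712 (SD, n = 7), a ratio of 1.15. The log2 difference of 0.20 (SE 0.09, 95% interval 0.02 to 0.39) did not pass the test (limma adjusted p = 0.260, and 0.179 to 0.793 over 21 alternatives).

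Vimentin's relatives, the other intermediate filament genes and the linker Plec, did not move together. Of 10 tested of 21 on the array, none was higher and 1 was lower (unadjusted p under 0.05), with a median log2 difference of 0.03. Lmnb1, a lamin of the nuclear envelope, was at -0.30 (SE 0.10, limma adjusted p = 0.161) and Nes, a filament of progenitor cells, at -0.30 (SE 0.18, adjusted p = 0.413). Synm, which joins desmin and vimentin filaments in muscle, was at 0.23 (SE 0.12, adjusted p = 0.344) and the epithelial keratin gene Krt18 at 0.13 (SE 0.08, adjusted p = 0.450). Filaments of neurons and basal epithelium (Nefl, Nefm, Krt5, Krt14) lay under the filter. Beside Thy1 and Vim, 17 further surface and mesenchymal markers were tested, with 0 higher, 2 lower (unadjusted p under 0.05, and 0 to 4 lower over the alternatives) and a median of -0.02. Eng, a co-receptor for TGF-beta on endothelium and stroma, had a mean signal of 2367 ± 270.3 (SD, n = 5) and 1993 ± 281 (SD, n = 7), and Fn1, which encodes the matrix protein fibronectin, was at -0.20 (log2). Pdpn, a membrane glycoprotein of type I alveolar cells and lymphatics, was at -0.17 and P4ha1, a collagen prolyl hydroxylase, at 0.16. None of these passed the adjusted p.

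Of the secreted frizzled proteins, Sfrp2 (1390119_at, Entrez 310552) had lower signals in diabetic lung. It is in the study's own list of genes chosen on these animals, so its direction here is not independent evidence. The normal signals were 197.5, 273.8, 289.7, 288.1 and 293.2. The diabetic signals ran from 131.1 through a median of 163.2 to 198.6. In 6 of 7 diabetic animals the value was under the lowest normal one, and diabetic animal 7 lay just above normal animal 1, which itself stood well below the other 4. The means were 268 ± 40.4 (SD, n = 5) and 170.1 ± 24.6 (SD, n = 7), a fold change of -1.58. The diabetic mean lay at the filter limit of 170.0, so the probe set was kept through its normal signals. Signals this near the limit make the size of the difference less certain. The log2 difference was -0.66 (SE 0.14, 95% interval -0.95 to -0.37), with a limma adjusted p of 0.0552 and place 35 in order of p. Over 20 alternatives it was -0.94 to -0.59 with adjusted p of 0.0263 to 0.152, under 0.05 in 3 of them, and without normal animal 1 it was -0.76 (adjusted p = 0.0307).

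Sfrp1 and Sfrp4 did not follow Sfrp2. Sfrp1 (1371861_at) had normal signals of 282.2, 268.6, 329.6, 286.9 and 291.1, and diabetic signals from 251.5 through a median of 274.2 to 409.3. Its means were 292 ± 22.8 (SD, n = 5) and 312 ± 63.3 (SD, n = 7). Diabetic animals 2, 3 and 7 lay above the normal range and animals 4 and 5 below it. The log2 difference of 0.08 (SE 0.13, 95% interval -0.20 to 0.35, limma adjusted p = 0.810) changed sign to -0.03 with the GAPDH ratio as a covariate. Sfrp4 (1368394_at) had normal signals of 186.1, 168.0, 151.3, 207.9 and 138.6, and diabetic signals from 132.7 through 184.6 to 240.6. These ranges overlapped, and the log2 difference was 0.14 (SE 0.16, 95% interval -0.20 to 0.48, limma adjusted p = 0.699). The normal mean of this probe set, 170.4, lay at the filter limit of 170.0, and the diabetic mean was 189.8. Signals this near the limit make the difference less certain. The dimmer Sfrp4 probe set 1388021_at had 62.3 to 102.7 in normal and 66.6 to 98.2 in diabetic lung, with a log2 difference of 0.13 (exact permutation test, two-sided, p = 0.352).

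**Figure D2:**
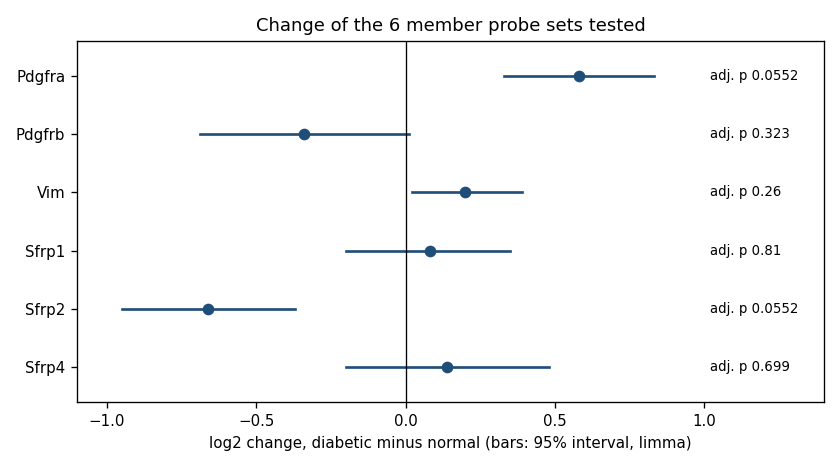
Log2 difference in signal, diabetic minus normal, for the 6 member probe sets that were tested, with the limma estimate as a point and its 95% interval as a line. The interval lies above 0 for Pdgfra and Vim, below 0 for Sfrp2, and includes 0 for Pdgfrb, Sfrp1 and Sfrp4.

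The Wnt pathway in which the secreted frizzled proteins act had 33 genes tested of 41 on the array. At an unadjusted p under 0.05, 1 was higher and 3 were lower (1 to 3 and 2 to 6 over the alternatives). Of all probe sets 7.75% were higher and 8.68% lower at that p, so the count lower was near that share. Of the 33 genes 0 passed the adjusted p, and the median log2 difference was -0.03. The 3 other secreted inhibitors did not all move the same way. Wif1 was at -0.40 (adjusted p = 0.421 in limma) and Frzb at 0.19 (adjusted p = 0.636), so their median of -0.32 is the value of Dkk3. Dkk3, a member of the Dickkopf family, had a mean of 1459.4 ± 157 (SD, n = 5) in normal and 1165.4 ± 88.5 (SD, n = 7) in diabetic lung, a log2 difference of -0.32 (SE 0.08, limma adjusted p = 0.0885). The ligand gene Wnt4 was at -0.32 (SE 0.13, adjusted p = 0.238) and the receptor gene Fzd2 at -0.40 (SE 0.14, adjusted p = 0.185). Ctnnb1, which encodes beta-catenin, was at 0.23 (SE 0.07, adjusted p = 0.159) on its brightest probe set, but its other probe sets were at 0.16 and -0.24 and so disagreed in direction. The 6 tested targets and feedback genes had a median of -0.02, and none reached an unadjusted p under 0.05. The ligand genes Wnt5a and Wnt6 lay under the filter at 109.8 and 117.

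**Figure D3:**
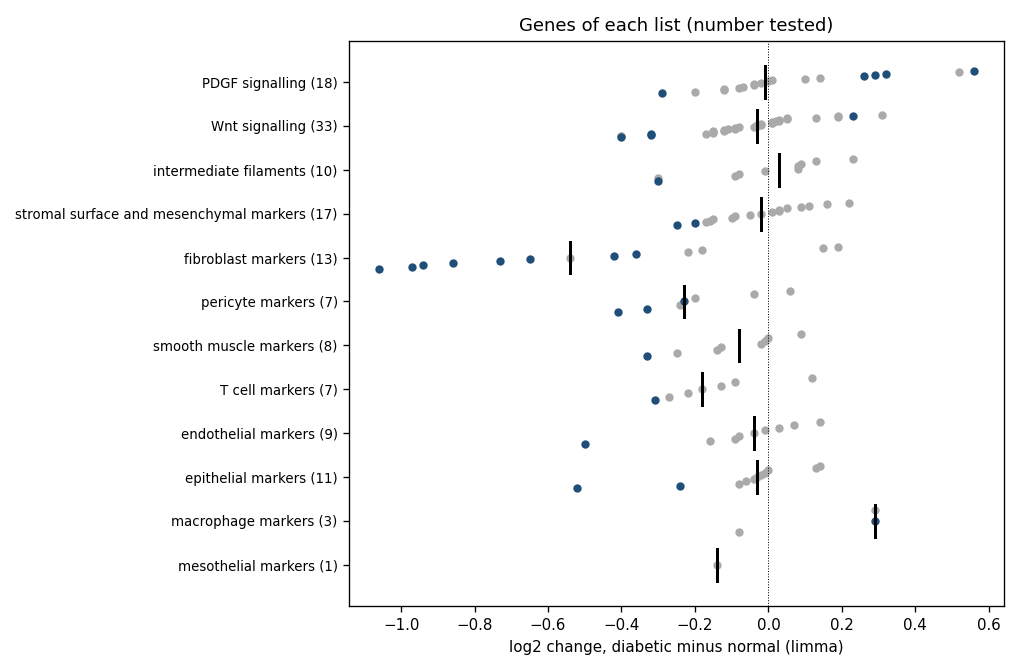
Log2 difference in signal, diabetic minus normal, for the brightest probe set of each tested gene in each gene list; points are genes (blue at an unadjusted p under 0.05, grey otherwise, spread in height only to part them) and the line in each row is the median of its list. Fibroblast markers have the lowest median (-0.54), and the PDGF and Wnt lists are centred near 0 (-0.01 and -0.03).

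Other markers of fibroblasts lay lower in diabetic lung, unlike Pdgfra. Of 13 tested, 8 had an unadjusted p under 0.05 and a lower signal, and none was higher at that p. Of all probe sets 8.68% were lower and 7.75% higher at that p. Of the 13 markers 0 passed the adjusted p, and the median log2 difference was -0.54, with 11 of 13 below 0. Over the alternatives the median ran from -1.31 with the GAPDH ratio as a covariate to -0.35 without diabetic animal 6, where again 8 were lower and 1 was higher at that p, and the count lower ran from 6 to 10. Col1a1, Col3a1 and Col1a2, the genes of fibrillar collagens I and III, were at -1.06 (SE 0.25, limma adjusted p = 0.0760), -0.97 (SE 0.25, adjusted p = 0.0926) and -0.94 (SE 0.25, adjusted p = 0.0926). For Col1a1 and Col1a2 these are values of the brighter of 2 probe sets tested, and the other is not reported here. Fbln1, a matrix glycoprotein, was at -0.86 (SE 0.20, adjusted p = 0.0729). Its mean signal was 291 in normal and 167 in diabetic lung. The diabetic mean lay under the filter limit of 170.0, so Fbln1 was kept through its normal signals. The size of its difference is therefore less certain. Col1a1 and Col3a1 are among the genes the study picked from these animals. Dcn, a collagen-binding proteoglycan, and Tcf21, a transcription factor of lung fibroblasts, were at 0.19 and 0.15. The summed signal of the 13 markers was 25701 to 28512 in normal and 11790.3 to 23365 in diabetic lung, without overlap, and none of them was at 0. The sum is of linear signals, so the brightest markers weigh most in it. Its mean was 27217.5 in normal and 19591.2 in diabetic lung, where the mean of Col3a1 alone was 8739 and 4809. Fap lay under the filter at 112.

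Pericyte markers, read beside Pdgfrb, had 7 genes tested, with a median of -0.23. Of these 3 were lower at an unadjusted p under 0.05, where 8.68% of all probe sets were, and 0 passed the adjusted p. The summed signals of the pericyte markers were 3778 to 4086 in normal and 3027 to 4008 in diabetic lung. Higd1b was at -0.33 (log2), Rgs5, a regulator of G protein signalling, at -0.41, Notch3, a receptor of mural cells, at -0.23 and Cspg4, the proteoglycan NG2, at -0.24. The count of 3 became 1 without any one of diabetic animals 1, 3, 4 and 6 or normal animals 1, 3 and 4, and also with median centring, quantile normalization, no filter, the stricter filter or the replicate block. Pdgfrb itself was at -0.26 without diabetic animal 6. Kcnj8 and Trpc6 lay under the filter. Smooth muscle markers had 1 of 8 lower and a median of -0.08, with Smtn at -0.33, Acta2 at -0.25, Myl9 at -0.13 and Des at 0.09, and their summed signals overlapped.

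Among the diabetic animals, the 3 with the lowest fibroblast markers (6, 3 and 2) had the highest Pdgfra signals, while the 5 normal animals lay close together. With each group's mean removed, the log2 signal of Pdgfra had a Pearson's r of -0.88 (Spearman's rho -0.89) with the log2 summed signal of the 13 markers over the 12 arrays, and -0.77 without the 2 arrays farthest out. For 12 of the 13 markers taken singly r was below 0, down to -0.88 for Col1a2, and Dcn was the exception at 0.50. Sfrp2 went the other way, with r of 0.71 (rho 0.80, and 0.69 without the 2 arrays), positive for 12 of 13 markers. Diabetic animal 6 had the lowest marker sum (11790.3), the highest Pdgfra and the lowest Sfrp2, and diabetic animals 2 and 3 had the next lowest sums (17978 and 17303). This order among the diabetic animals moved with the GAPDH ratio. From the lowest marker sum to the highest (animals 6, 3, 2, 4, 1, 5 and 7), the GAPDH ratios of the diabetic arrays were 1.30, 1.17, 1.13, 1.12, 1.11, 1.11 and 1.10, so the ratio was highest where the sum was lowest, and Pdgfra followed nearly the same order. The beta-actin ratios in the same order were 2.85, 1.99, 1.90, 2.25, 1.77, 1.84 and 1.97. Animal 6 thus had the highest of the 12 arrays, and the others followed no such order. Between the groups the GAPDH ratio ran the other way, with a higher mean in normal lung, where the sums were higher too. The part of RNA quality in this pattern was not tested. Pdgfrb had r of 0.47 (rho 0.29), while Vim, Sfrp1, Sfrp4 and Thy1 had r of 0.06 to 0.16. Both values of a point come from the same array, with its RNA and its scaling, so these correlations are a description with no test.

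**Figure D4:**
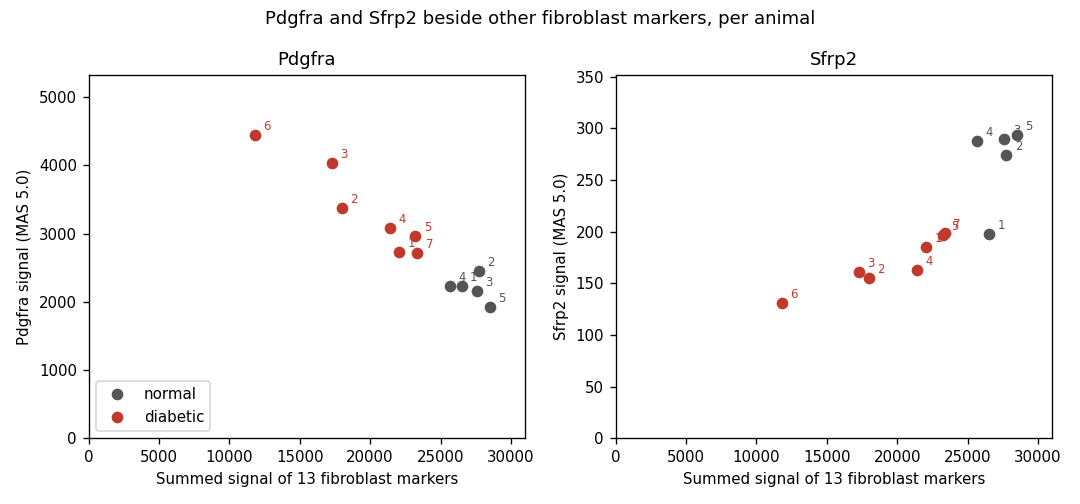
MAS 5.0 signal of Pdgfra (left) and Sfrp2 (right) in each animal, on linear axes from 0, against the summed signal of 13 other fibroblast markers, with 5 normal (grey) and 7 diabetic (red) animals numbered. The 3 diabetic animals with the lowest sums (6, 3 and 2) have the highest Pdgfra signals, the 5 normal animals show no clear order, and diabetic animal 6 has the lowest sum, the highest Pdgfra and the lowest Sfrp2.

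Among the members themselves, deviations from the group means ran opposite for Pdgfra and Sfrp2 (r = -0.67, rho = -0.83 over 12 arrays, and r = -0.52 without the 2 arrays farthest out). Without 2 arrays in the same way, Sfrp1 with Sfrp4 was at -0.57 and Vim with Sfrp2 at -0.53 (-0.25 over all 12). For Pdgfra with Pdgfrb r was -0.12. For Pdgfrb with Sfrp4 it was 0.54 (0.67 without 2 arrays) and for Pdgfrb with Sfrp1 0.45 (0.21 without 2 arrays). Over all 12 arrays Sfrp1 and Sfrp4 had r of -0.31, and Sfrp2 had 0.18 with Sfrp1 and -0.01 with Sfrp4, so the 3 secreted frizzled genes did not vary as a group.

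The genes most like each member were those with the highest r of deviations over the 12 arrays. For Pdgfra these were Scnn1a, a subunit of the epithelial sodium channel (0.95), the activin receptor gene Acvr2b (0.94) and the lymphatic hyaluronan receptor gene Lyve1 (0.94), at 0.84 to 0.87 without the 2 arrays farthest out. For Sfrp2 they were Kat6b (0.91), Arhgef25 (0.88) and Adprh (0.88), of which Arhgef25 stood at 0.94 without 2 arrays and the others at 0.66 and 0.56. For Pdgfrb they were Tubgcp4 (0.93), Kyat1 (0.91) and Rubcn (0.90), and for Vim they were Nmt1 (0.93), Lzic (0.90) and Selenoh (0.89). For Sfrp1 they were Polb (0.87), Nt5c3a (0.87) and Scaf11 (0.83), and for Sfrp4 Setd1a (0.90), Mob2 (0.88) and Dnaja3 (0.88). Each was picked as the highest of 9520 probe sets over 12 arrays, so these values only describe the arrays.

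Markers of the remaining cell types showed no shift as wide as that of the fibroblast list, though a difference between lists was not tested. Endothelial markers had 1 of 9 lower at an unadjusted p under 0.05 and a median of -0.04, with 6 below and 3 above 0. Those of smallest p were Emcn at -0.50, Tie1 at -0.16, Kdr at -0.08 and Vwf at -0.09. Epithelial markers had 2 of 11 lower and a median of -0.03, with the water channel gene Aqp5 at -0.52, Ager, a receptor of type I alveolar cells, at -0.24, Epcam at 0.14 and Krt18 at 0.13. Macrophage markers had 1 of 3 higher, Csf1r, the receptor for a macrophage growth factor, at 0.29, beside Cd68 at 0.29 and Lyz2 at -0.08. The only mesothelial marker tested, Msln, was at -0.14, and all 3 adipocyte markers on the array lay under the filter. None of these genes passed the adjusted p, and the ranges of summed signal of the endothelial, epithelial and macrophage lists overlapped between the groups.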

How the data were processed

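The authors hybridized lung RNA of 12 rats to RAE 230A arrays. They gave each probe set an intensity with MAS 5.0 and scaled the arrays (checked here: the mean without 2% at each end was 500.1 on every array). The deposited intensities were taken as given, and 1 value at or below 0 was set to 0.1 before log2. The 57 control probe sets were left out. Names came from Entrez IDs (12748 probe sets), accessions (2) or symbols (33), and the 312 with several genes and 2771 with none were fitted unnamed. The lowest 40% by mean log2 signal (a limit of 170.0) were removed. Groups were compared with limma 3.58.1 in R 4.3.3 (lmFit, eBayes with an intensity trend, two-sided, Benjamini-Hochberg over all probe sets tested), the nearest test here to the study's Bayesian analysis of variance. The fit was also run on simulated data, with noise drawn independently for each probe set. Such data lack the variation that probe sets of an array share, so that run is no check on its effect. Intervals are 95%. Permutation tests ran over all assignments of the 12 arrays in scipy 1.17.1. A list gene was read on its brightest probe set. The text names every member probe set, the 4 genes of smallest p in each list (more fibroblast markers were named after their values were seen), and the 3 likest genes of each member. Members and lists were chosen with earlier results of these data known. Alternatives covered scaling, a pseudocount of 22.3, the filter, the variance trend, array weights, the threshold, the GAPDH ratio, the replicate number and leaving out each animal. The number of arrays limits the precision. BAMarray and present calls were not used here, and RT-PCR and heart data were not analysed here. Figures were drawn with matplotlib 3.10.9 in python 3.11.15.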

Additional observations from a re-analysis of the deposited data

Results flagged for a closer look

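The Sfrp2 signal of normal animal 1, at 197.5, stood apart from the other 4 normal animals, which lay between 273.8 and 293.2. Its gap to the nearest of them was 0.797 of the whole range of the group, over Dixon's 95% limit for 5 samples. Of the 18 groups of member signals examined in this way, 1 was picked out, and chance alone picks out about 1 in 20. Without this animal the log2 difference of Sfrp2, diabetic minus normal, was -0.76 (limma adjusted p = 0.0307, against 0.0263 to 0.152 over all 20 alternatives).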

How the results depend on the processing

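The count of members past an adjusted p of 0.05 in limma, 0 as reported, became 2 with the GAPDH ratio as a covariate and 2 with array weights (Pdgfra and Sfrp2 in each), 1 with quantile normalization and 1 with the stricter filter of 60% (Pdgfra in each), and 2 at a threshold of 0.10. Leaving out 1 animal at a time gave 0 to 1, with Pdgfra called without diabetic 6 (0.51, adjusted p = 0.0487) and Sfrp2 without normal 1. The count higher at an unadjusted p under 0.05, 2 as reported, was 1 with the GAPDH covariate and 1 to 2 with an animal left out (1 without normal 4 or 5 or diabetic 1, 2 or 3). The count lower, 1 as reported, was 2 with array weights, 0 with the stricter filter, which removes Sfrp2, Pdgfrb, Sfrp1 and Sfrp4 from the test, and 1 to 2 with an animal left out (2 without normal 5 or diabetic 3, 5 or 7). On the whole array the 16 calls became 288 with the GAPDH covariate, 80 with array weights, 32 with the stricter filter, 25 with quantile normalization, 9 without the intensity trend and 7 without a filter, and 2 to 27 with an animal left out. Apart from the stricter filter, the causes were not tested. The difference of Sfrp1 changed sign to -0.03 with the GAPDH covariate, and no other result with a test changed direction. With the replicate number as a block (replicate block, in which animals of one number are compared), Pdgfra was at 0.55 (adjusted p = 0.0904), Sfrp2 at -0.63 (adjusted p = 0.152) and 0 members were called, with 11 calls on the array. The numbers do not pair the animals: each is another rat, and same-numbered arrays had correlations of deviations of -0.123 to 0.0384, with 1 of 5 normal arrays closest to its own number. Counts at an unadjusted p in the lists of 10 genes or fewer often moved by 1 or more with a single animal left out. Thy1 and the second Sfrp4 probe set were too dim to be tested across the array.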
